A study of Homo sapiens with 12 samples.

Results

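The Polycomb group genes described here encode subunits of both Polycomb repressive complexes and were chosen by symbol, with earlier results of these data known but by no threshold on measured values: EZH2, EZH1, SUZ12, EED, JARID2, PHF19, RNF2, BMI1, CBX2 and CBX7. All 10 were found among the 27514 genes listed, and 9 of the 10 passed the filter of a mean of at least 1 CPM (read counts scaled to the library's reads) over the 12 samples. CBX7 did not pass it. RNA was sequenced from IMR32, an established human neuroblastoma cell line, 72 h after electroporation with small interfering RNA, in 4 groups of 3 samples. One group received the control siRNA (siCtrl, labelled siCTR), one an siRNA against MYCN (siMYCN, labelled siMYCN_2), one an siRNA against HAND2 (siHAND2, labelled siHAND2_3), and one both of the latter (the combined knockdown, labelled siM2+siH2_3). All groups shared the cell line, the electroporation and the growth medium, and each target was represented by a single siRNA label, so an effect of the target cannot be told apart from an effect of that siRNA. The labels do not say whether the samples of a group came from separate cultures, so the p-values measure the spread between these samples, which may be technical.

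Polycomb proteins keep genes silent by modifying histones. In Polycomb repressive complex 2 (PRC2), EZH2 or its paralog EZH1 methylates histone H3 and needs the scaffold SUZ12 and the methyl-mark reader EED to do so, while accessory subunits such as JARID2 and PHF19 direct the complex to its sites. In Polycomb repressive complex 1 (PRC1), the ligase RNF2 works with a PCGF partner such as BMI1 to attach ubiquitin to another histone, and a CBX protein such as CBX2 or CBX7 reads the methyl mark left by PRC2. EZH2 is known for high levels in MYCN-amplified neuroblastoma and in dividing cells, whereas EZH1 is known for its presence in resting cells.

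In the combined knockdown, 7 of the 9 tested members were called lower than in siCtrl (limma, Benjamini-Hochberg adjusted p under 0.05 over all 12680 genes tested), where 67.4% of all genes tested were called in either direction and 50.1% were called lower. No test was made of the members' share against this background. The 7 were PHF19, EED, EZH2, SUZ12, BMI1, CBX2 and RNF2. The median change of the 9 members was −0.49 on the scale of log2(CPM + 1), beside −0.28 for all genes tested. As deposited, the level fell to 38.9% of the siCtrl mean for EED, 39.3% for PHF19, 47.3% for EZH2 and 51.9% for SUZ12. EZH1 and JARID2 were at 117% and 110% of their siCtrl means and were not called. With siHAND2 alone, 4 of 9 members were called lower (PHF19, EED, EZH2 and RNF2), beside 42.7% of all genes called and 30.4% called lower. With siMYCN alone, 1 of 9 was called lower (EED), beside 33.7% of all genes called and 16.3% called lower. When the replicate number entered the fit as a block, siMYCN had 2 members called lower (EED and EZH2), beside 18.6% of all genes called lower.

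The scale of the values bears on these counts. The share of all reads that fell in listed genes was 65.1% ± 0.74 (SD, n = 3) in siCtrl, 62.4% ± 0.98 with siMYCN, 59.4% ± 2.39 with siHAND2 and 51.4% ± 7.04 in the combined knockdown, with 44.3% in its replicate 3. The median change of all genes tested was 0.006 with siMYCN, −0.14 with siHAND2 and −0.28 with both, and became 0.014, 0.012 and 0.045 once the samples were rescaled by the median ratio of their genes to a common reference (rescaled values). On the rescaled values, 5 members were called lower in the combined knockdown (PHF19, EED, EZH2, SUZ12 and BMI1) and 2 higher (EZH1 and JARID2), beside 33.0% of all genes called lower and 37.7% called higher. Rescaled siHAND2 values gave 3 members lower (PHF19, EED and EZH2) and 1 higher (JARID2), beside 24.9% and 25.9% of all genes. Rescaled siMYCN values gave 3 lower (EED, EZH2 and BMI1) and 2 higher (JARID2 and RNF2), beside 22.5% and 25.4% of all genes. PHF19, EED, EZH2, SUZ12 and BMI1 were thus called lower in the combined knockdown on both scales. The falls were smaller on the rescaled values. There the combined level was 49.4% of the siCtrl mean for EED, 50.3% for PHF19, 60.4% for EZH2 and 66.3% for SUZ12. Depth was estimated at 31.6 to 64.2 M reads per sample, at which 3 reads correspond to 0.0468 to 0.0950 CPM. That floor covers counting error only.

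The targeted genes matched the labels in direction. As deposited, MYCN was at 67.5% of its siCtrl mean with siMYCN, 84.1% with siHAND2 and 47.7% in the combined knockdown, and HAND2 was at 136%, 26.0% and 30.7%. The siHAND2 difference of MYCN was called on neither scale (log2 change −0.25 as deposited and −0.09 rescaled). Its rescaled change was −0.56 with siMYCN and −0.71 in the combined knockdown. The combined knockdown differed from siMYCN by −0.51 as deposited (called) and −0.16 rescaled (not called). The marker levels that follow are as deposited. Among markers of noradrenergic neuroblastoma cells, CHGA was at 99.5 CPM in siCtrl and at 129%, 172% and 130% of that mean with siMYCN, siHAND2 and both. PHOX2A was at 68.5 CPM and at 169%, 23.4% and 39.5%, GATA3 at 32.7 CPM and at 141%, 86.3% and 94.9%, and DBH at 2.65 CPM and at 302%, 35.1% and 35.6%. TH, which encodes the first enzyme of noradrenaline synthesis, was at 0.120, 0.350, 1.07 and 1.58 CPM in siCtrl, siMYCN, siHAND2 and the combined knockdown. The 7 fibroblast markers summed to 28.9 to 33.5 CPM in siCtrl, 32.1 to 33.4 with siMYCN, 19.3 to 21.0 with siHAND2 and 12.6 to 19.1 in the combined knockdown, and DCN was at 0 in siCtrl and siMYCN. The 5 Schwann cell markers summed to at most 3.61 CPM and the 5 blood cell markers to at most 0.157 CPM in any sample, with CD3E and HBB at 0 throughout. The part of these markers in the Polycomb results was not tested. In bulk RNA, fewer cells of a type and less RNA per cell cannot be told apart.

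**Figure D1:**
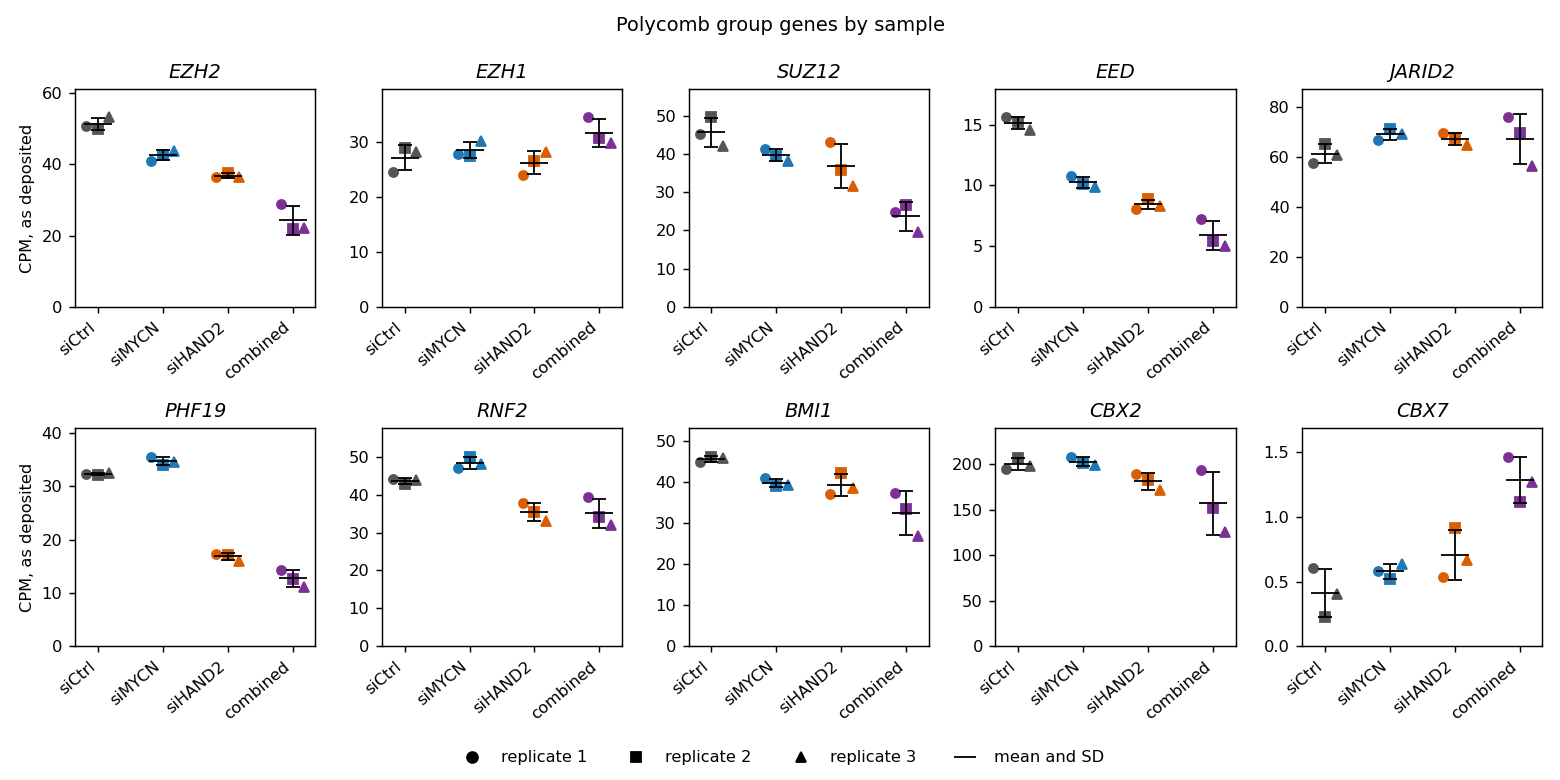
CPM as deposited (vertical axes, each starting at 0) of the 10 Polycomb group genes in each of the 12 samples, with the mean and SD of each group of 3 (bars) and the replicate number by symbol. EZH2 and EED step down from siCtrl (50.0 to 53.3 and 14.6 to 15.6 CPM) to the combined knockdown (21.8 to 28.9 and 5.0 to 7.20 CPM), PHF19 is low only in the groups that received the siRNA against HAND2, and the combined knockdown samples of EZH1 and CBX7 lie above their siCtrl samples.

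EZH2, the catalytic subunit that carries most PRC2 activity in dividing cells, lies on chromosome 7 at 148504464 to 148581442 on the minus strand (hg19, as for the positions of the other genes). Its level in replicates 1, 2 and 3 was 50.9, 50.0 and 53.3 CPM in siCtrl, 41.0, 42.8 and 43.8 with siMYCN, 36.4, 37.6 and 36.4 with siHAND2, and 28.9, 21.8 and 22.2 in the combined knockdown. As deposited, all 9 knockdown samples lay below all siCtrl samples, no 2 groups overlapped, and replicate 1 was the highest of the combined samples. On the rescaled values the siMYCN samples (37.2 to 40.7) and the siHAND2 samples (36.1 to 38.6) overlapped each other. EZH2 as deposited fell by 1.06 in the combined knockdown (SE 0.11, limma adjusted p = 8.2e-09) and by 0.47 with siHAND2 (SE 0.11, limma adjusted p = 0.0016), on the log2 scale. The siMYCN difference of −0.27 was not called (SE 0.11, limma adjusted p = 0.071), but passed the threshold with the replicate block (limma adjusted p = 0.049) and on the rescaled values (−0.26, limma adjusted p = 0.0069).

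EZH1, the paralog of EZH2 with weaker methyltransferase activity, lies on chromosome 17 at 40852293 to 40897115 on the minus strand. Its level was 24.5, 28.8 and 28.2 CPM in siCtrl, 27.9, 27.5 and 30.2 with siMYCN, 24.0, 26.5 and 28.1 with siHAND2, and 34.5, 30.7 and 29.8 in the combined knockdown. The siMYCN and siHAND2 samples overlapped siCtrl, and the 3 combined samples lay above it. The combined difference was 0.21 (SE 0.11, limma adjusted p = 0.089) as deposited. It was called without replicate 3 of the combined knockdown (0.26, limma adjusted p = 0.025) and on the rescaled values, where EZH1 rose by 0.56 (SE 0.09, limma adjusted p = 6.2e-05). The siHAND2 difference was −0.05 as deposited and 0.11 on the rescaled values, called on neither.

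SUZ12, the scaffold of PRC2, lies on chromosome 17 at 30264029 to 30328065 on the plus strand. Its level was 45.3, 49.6 and 42.1 CPM in siCtrl, 41.3, 39.6 and 38.2 with siMYCN, 43.1, 35.9 and 31.6 with siHAND2, and 24.8, 26.8 and 19.5 in the combined knockdown. The combined samples were below every sample of the other groups, and replicate 1 of siHAND2 overlapped siCtrl. SUZ12 fell by 0.93 in the combined knockdown (SE 0.13, limma adjusted p = 5.3e-07) and by 0.58 on the rescaled values (SE 0.09, limma adjusted p = 5.4e-05). The differences of −0.20 with siMYCN and −0.31 with siHAND2 were not called (limma adjusted p = 0.25 and 0.052), and the latter was called without replicate 1 of siHAND2 (−0.43, limma adjusted p = 0.016). A near copy, the pseudogene SUZ12P1, is listed separately at 7.83 ± 0.700 CPM (SD, n = 3) in siCtrl and 7.65 ± 0.623 in the combined knockdown, and how reads were divided between them is not given in the sources used here.

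EED, which binds the methyl mark and stimulates the enzyme, lies on chromosome 11 at 85955426 to 85989853 on the plus strand. Its level was 15.6, 15.2 and 14.6 CPM in siCtrl, 10.8, 10.1 and 9.91 with siMYCN, 8.10, 8.89 and 8.31 with siHAND2, and 7.20, 5.47 and 5.0 in the combined knockdown. The 4 groups did not overlap one another in any sample. EED was the member called lower in all 3 comparisons with siCtrl on both scales. As deposited, it fell by 0.52 with siMYCN (SE 0.12, limma adjusted p = 0.0010), by 0.78 with siHAND2 (SE 0.12, limma adjusted p = 6.1e-06) and by 1.24 in the combined knockdown (SE 0.12, limma adjusted p = 6.9e-10).

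PHF19, a Polycomb-like accessory subunit that binds an active histone mark and helps to bring PRC2 to its sites, lies on chromosome 9 at 123617929 to 123657175 on the minus strand. Its level was 32.4, 32.2 and 32.5 CPM in siCtrl, 35.6, 34.1 and 34.6 with siMYCN, 17.4, 17.2 and 16.1 with siHAND2, and 14.3, 12.7 and 11.1 in the combined knockdown. All siMYCN samples lay above siCtrl, and all samples with the siRNA against HAND2 lay far below it. PHF19 as deposited fell by 0.90 with siHAND2 (SE 0.11, limma adjusted p = 2.7e-07) and by 1.29 in the combined knockdown (SE 0.11, limma adjusted p = 9.8e-11). Its siMYCN difference of 0.10 was not called (SE 0.11, limma adjusted p = 0.51).

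JARID2, an accessory subunit that helps to place PRC2 on chromatin, lies on chromosome 6 at 15246206 to 15522274 on the plus strand. Its level was 57.7, 65.2 and 60.9 CPM in siCtrl, 66.9, 71.3 and 69.2 with siMYCN, 69.4, 67.5 and 64.7 with siHAND2, and 75.8, 69.5 and 56.2 in the combined knockdown. The siMYCN samples lay above siCtrl, while siHAND2 and the combined knockdown overlapped it. None of its differences from siCtrl was called as deposited (0.17, 0.13 and 0.12 in the order of the groups, limma adjusted p = 0.27, 0.37 and 0.36). On the rescaled values JARID2 rose by 0.18, 0.29 and 0.48 (limma adjusted p = 0.014, 0.00055 and 2.3e-06), and the combined difference as deposited was called without replicate 3 of that group (0.24, limma adjusted p = 0.015).

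The promoters of EZH2, SUZ12, EED and PHF19, the 4 PRC2 genes called lower in the combined knockdown on both scales, are shown with that of EZH1, which was not called lower. Each runs from 250 bases before to 20 bases after a RefSeq start (GRCh38.p14, gene strand, 5′ to 3′), and 9 of the 10 members had an entry, 13 entries in all. Capitals mark matches, on either strand, to TTTGGCGC, TTTCCCGC, TTTCGCGC or TTTGCCGC, which are forms of the sequence bound by the cell cycle factors of the E2F family, to CACGTG, the E-box bound by MYC proteins with MAX, or to CATCTG, an E-box bound by HAND2 with its partners.
EZH2, chr7:148884272-148884541, minus strand: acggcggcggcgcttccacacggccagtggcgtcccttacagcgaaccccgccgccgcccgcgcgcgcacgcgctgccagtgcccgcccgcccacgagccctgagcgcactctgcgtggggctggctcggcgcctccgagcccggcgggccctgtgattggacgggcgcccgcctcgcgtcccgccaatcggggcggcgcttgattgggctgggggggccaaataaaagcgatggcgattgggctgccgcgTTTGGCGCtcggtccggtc
SUZ12, chr17:31936757-31937026, plus strand: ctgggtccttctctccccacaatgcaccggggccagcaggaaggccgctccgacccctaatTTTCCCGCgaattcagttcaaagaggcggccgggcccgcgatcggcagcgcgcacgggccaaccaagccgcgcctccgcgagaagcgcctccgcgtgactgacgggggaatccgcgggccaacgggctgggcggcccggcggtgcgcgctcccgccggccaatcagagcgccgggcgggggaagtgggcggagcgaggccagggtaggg
EED, chr11:86244503-86244772, plus strand: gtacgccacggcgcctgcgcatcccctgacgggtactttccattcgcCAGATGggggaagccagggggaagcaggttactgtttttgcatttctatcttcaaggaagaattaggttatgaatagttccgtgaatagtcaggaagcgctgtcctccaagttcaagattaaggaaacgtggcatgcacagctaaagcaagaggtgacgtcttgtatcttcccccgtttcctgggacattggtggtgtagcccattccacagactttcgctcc
PHF19, chr9:120877169-120877438, minus strand: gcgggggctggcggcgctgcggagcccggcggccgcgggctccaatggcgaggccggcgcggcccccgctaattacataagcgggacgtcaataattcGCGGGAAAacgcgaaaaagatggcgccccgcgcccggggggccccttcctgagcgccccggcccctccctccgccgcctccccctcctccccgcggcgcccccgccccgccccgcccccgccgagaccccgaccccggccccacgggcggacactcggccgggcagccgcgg
EZH1, chr17:42745021-42745290, minus strand: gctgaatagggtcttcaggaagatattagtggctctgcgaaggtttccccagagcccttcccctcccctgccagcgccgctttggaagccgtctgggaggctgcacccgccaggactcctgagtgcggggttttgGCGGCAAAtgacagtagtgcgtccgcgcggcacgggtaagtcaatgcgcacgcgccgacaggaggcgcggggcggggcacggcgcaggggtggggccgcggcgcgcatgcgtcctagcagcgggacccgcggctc

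The EZH2 promoter printed holds TTTGGCGC from position 2 after the start, while its other entry, from the more downstream start, holds none of the motifs searched. TTTGGCGC was found in 0.598% of the 35116 promoters of the same length. SUZ12 holds TTTCCCGC from position −189, and PHF19 holds the same letters on the opposite strand from position −152, in the more distal of its starts by that table. TTTCCCGC is in 1.5% of all promoters, and any of the 4 E2F-type sequences is in 3.03%. EED holds CATCTG on the opposite strand from position −203, a sequence found in 13.4% of all promoters. EZH1 holds TTTGCCGC on the opposite strand from position −115, found in 0.535%, and 1 of the 2 BMI1 entries holds CACGTG from position −70, found in 6.78%. Thus 6 members had a match in 1 of their entries, among them EZH1, which was not called lower. This count pools all motifs and all entries. The share of all promoters that hold any of the motifs was not computed, so the count has no background to be read against. The windows of JARID2, RNF2 and CBX7 hold none of these letters. Such matches describe the sequence only and were not tested for binding.

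RNF2, the ubiquitin ligase of PRC1 also known as RING1B, lies on chromosome 1 at 185014551 to 185071741 on the plus strand. Its level was 44.1, 42.7 and 43.9 CPM in siCtrl, 47.0, 50.1 and 48.0 with siMYCN, 37.8, 35.3 and 33.2 with siHAND2, and 39.3, 34.1 and 31.9 in the combined knockdown. As deposited, the siMYCN samples were above siCtrl and the samples of both other groups were below it. On the rescaled values the combined samples overlapped siCtrl. RNF2 fell by 0.29 with siHAND2 (SE 0.11, limma adjusted p = 0.032) and by 0.31 in the combined knockdown (SE 0.11, limma adjusted p = 0.015). Neither call held on the rescaled values (−0.14 and 0.04, limma adjusted p = 0.060 and 0.51). The siHAND2 call was also lost without any 1 of the siCtrl samples or without replicate 2 or 3 of siHAND2 (−0.31 to −0.25, limma adjusted p = 0.064 to 0.14), and the combined call without replicate 1 of siCtrl (−0.30, limma adjusted p = 0.051). The siMYCN difference was 0.15 (limma adjusted p = 0.31) as deposited, and RNF2 rose by 0.16 on the rescaled values (limma adjusted p = 0.034).

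BMI1, the PCGF partner of RNF2 in canonical PRC1, lies on chromosome 10 at 22610139 to 22620415 on the plus strand. Its level was 44.8, 46.1 and 45.8 CPM in siCtrl, 40.8, 39.0 and 39.3 with siMYCN, 37.0, 42.1 and 38.4 with siHAND2, and 37.4, 33.3 and 26.8 in the combined knockdown. As deposited, the 9 samples of the knockdowns were all lower than the 3 siCtrl samples. On the rescaled values the siHAND2 samples overlapped siCtrl. BMI1 fell by 0.49 in the combined knockdown (SE 0.12, limma adjusted p = 6.7e-04) and by 0.14 on the rescaled values (SE 0.06, limma adjusted p = 0.043). The differences of −0.19 with siMYCN and −0.22 with siHAND2 were not called as deposited (limma adjusted p = 0.21 and 0.14). The readthrough gene COMMD3-BMI1 overlaps BMI1 on the same strand and is listed at 5.70 ± 0.15 CPM (SD, n = 3) in siCtrl and 6.50 ± 2.02 in the combined knockdown, so part of the reads of BMI1 may be assigned to it or the reverse.

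CBX2, a reader of the methyl mark and the CBX member with the higher level here, lies on chromosome 17 at 77751977 to 77761450 on the plus strand. Its level was 194, 207 and 198 CPM in siCtrl, 208, 201 and 199 with siMYCN, 189, 183 and 171 with siHAND2, and 194, 152 and 125 in the combined knockdown. The siMYCN samples overlapped siCtrl, and the combined samples ranged from just under the siCtrl samples in replicate 1 to the lowest value in replicate 3. CBX2 fell by 0.37 in the combined knockdown as deposited (SE 0.13, limma adjusted p = 0.013), while the rescaled difference was −0.01 (SE 0.06, limma adjusted p = 0.89). The share of reads in listed genes had the same order over these replicates, 58.4% in replicate 1 and 44.3% in replicate 3.

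CBX7, a CBX protein known from differentiated and stem cells, lies on chromosome 22 at 39526779 to 39548656 on the minus strand. Its level was 0.606, 0.228 and 0.401 CPM in siCtrl, 0.580, 0.519 and 0.635 with siMYCN, 0.538, 0.912 and 0.667 with siHAND2, and 1.47, 1.11 and 1.27 in the combined knockdown. The combined samples were the highest of all 12, and every sample lay above the worth of 3 reads. In a fit without the filter on low values, CBX7 rose by 0.70 in the combined knockdown (SE 0.10, limma adjusted p = 2.2e-04), with 0.17 for siMYCN and 0.28 for siHAND2 not called (limma adjusted p = 0.33 and 0.079). The mean rose from 0.412 ± 0.189 CPM (SD, n = 3) to 1.28 ± 0.176, a ratio that the log2(CPM + 1) scale understates at such low values.

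**Figure D2:**
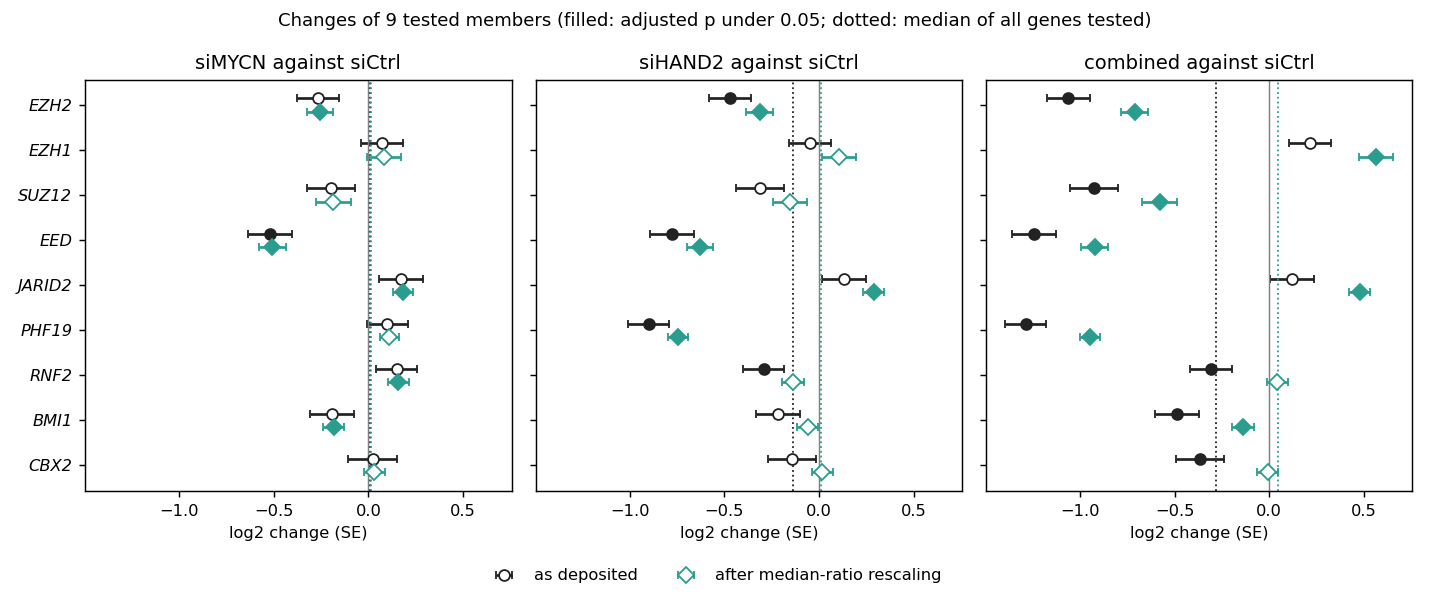
Log2 change with its SE (horizontal axis) of the 9 tested members in each knockdown against siCtrl, as deposited (black) and after median-ratio rescaling (green), filled where called, with the median of all genes tested as a dotted line on each scale. In the combined knockdown EZH2, SUZ12, EED, PHF19 and BMI1 lie left of the dotted line and are called on both scales, whereas RNF2 (−0.31) and CBX2 (−0.37) lie near it.

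Ratios of paralogs within a sample do not depend on how the sample was scaled, and they were compared by an exact permutation test, two-sided, for which 3 against 3 samples cannot go below p = 0.1. The ratio of EZH2 to EZH1 was 2.08, 1.74 and 1.89 in siCtrl, 1.47, 1.56 and 1.45 with siMYCN, 1.52, 1.42 and 1.29 with siHAND2, and 0.837, 0.711 and 0.746 in the combined knockdown. All 3 samples of each knockdown lay below all siCtrl samples, and the combined samples lay below all others. On the log2 scale the ratio was 0.92 ± 0.13 (SD, n = 3) in siCtrl and −0.39 ± 0.12 in the combined knockdown, a difference of −1.31 and thus a 2.49-fold shift from EZH2 toward EZH1 reads. It differed by −0.35 with siMYCN and by −0.43 with siHAND2, and each of the 3 comparisons had an exact p of 0.1 (0.24 after Benjamini-Hochberg adjustment over the 12 ratio comparisons).

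Per kilobase of the canonical transcript, EZH2 had 19.4 ± 0.634 CPM (SD, n = 3) and EZH1 5.86 ± 0.504 in siCtrl, and 9.15 ± 1.49 and 6.83 ± 0.539 in the combined knockdown. The level of EZH2 per kilobase was thus above that of EZH1 in all groups by this length. With the union of all annotated exons as the length, EZH2 was at 4.77 and EZH1 at 3.88 in siCtrl, at 3.95 and 4.08 with siMYCN, at 3.42 and 3.75 with siHAND2, and at 2.25 and 4.53 in the combined knockdown, so which paralog was higher in each of the 3 knockdowns depends on the length used. The change of the ratio between groups does not depend on it.

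The ratio of CBX2 to CBX7 had a log2 mean of 9.03 ± 0.75 (SD, n = 3) in siCtrl and 6.92 ± 0.26 in the combined knockdown, 4.32-fold lower, with all 3 samples below siCtrl (exact p = 0.1, adjusted p = 0.24). BMI1 against its paralog PCGF2 moved from 3.36 ± 0.41 to 2.52 ± 0.20 on the log2 scale (n = 3, exact p = 0.1, adjusted p = 0.24), and PCGF2 ranged from 3.26 to 5.74 CPM within siCtrl. RNF2 against its paralog RING1 had log2 means of 0.83 in siCtrl, 0.80 with siMYCN, 0.81 with siHAND2 and 0.91 in the combined knockdown, differences within the spread between samples (n = 3, exact p = 0.8, 0.9 and 0.4, adjusted p = 0.873, 0.9 and 0.533). The siMYCN and siHAND2 samples of the CBX and BMI1 ratios overlapped siCtrl (exact p = 0.2 to 0.5 over these 4 comparisons, n = 3).

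**Figure D3:**
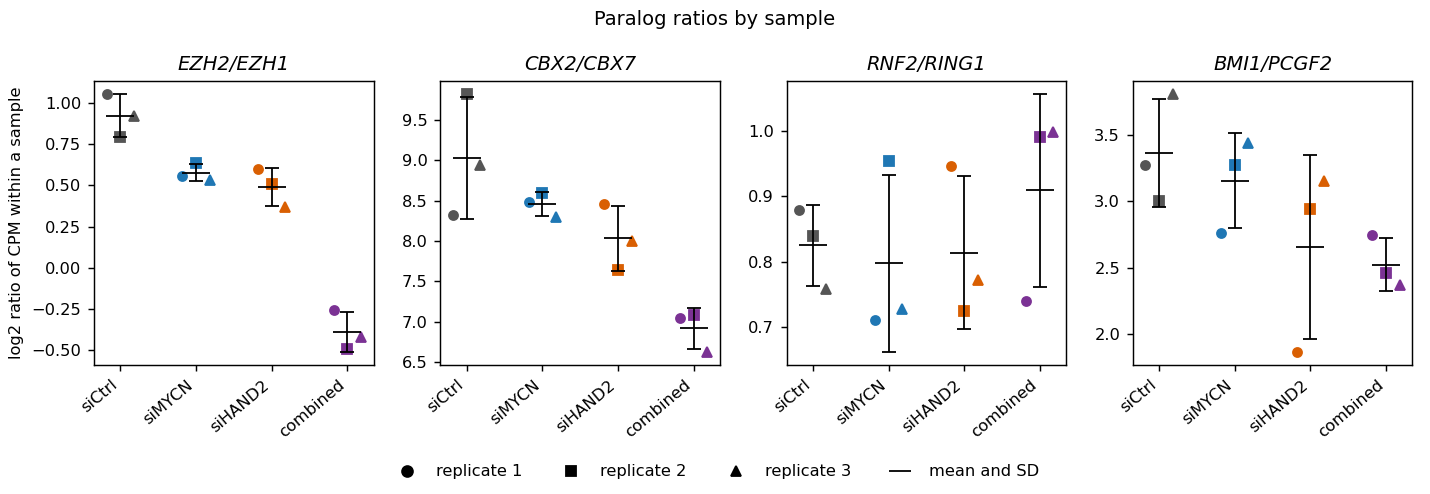
Log2 ratio of CPM within a sample (vertical axes, which do not start at 0) for EZH2/EZH1, CBX2/CBX7, RNF2/RING1 and BMI1/PCGF2, by group, with the mean and SD of 3 samples and the replicate number by symbol. EZH2/EZH1 is positive in the 9 siCtrl, siMYCN and siHAND2 samples and negative in the 3 combined samples, and RNF2/RING1 overlaps between all groups.

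Levels of the members per kilobase of canonical transcript spanned a wide range in siCtrl. CBX2 was highest at 43.1 ± 1.39 CPM per kilobase (SD, n = 3), followed by EZH2 at 19.4 ± 0.634. BMI1 and RNF2 came next at 12.9 ± 0.191 and 12.8 ± 0.217, and JARID2 and SUZ12 both stood at 10.2 (± 0.623 and ± 0.842), pairs that do not differ beyond their spread. PHF19 followed at 7.80 ± 0.0354, EED at 7.25 ± 0.249, EZH1 at 5.86 ± 0.504 and CBX7 at 0.10 ± 0.046. In the combined knockdown the order was CBX2, JARID2 (11.2 ± 1.67), RNF2 (10.3 ± 1.12), BMI1 (9.18 ± 1.51), EZH2 (9.15 ± 1.49), EZH1 (6.83 ± 0.539), SUZ12 (5.27 ± 0.840), PHF19 (3.07 ± 0.388), EED (2.82 ± 0.556) and CBX7 (0.312 ± 0.0428). There JARID2, RNF2, BMI1 and EZH2 overlapped in their spread, as did PHF19 and EED. These spreads are between samples, whose share of listed reads also differed, and the order of genes within a sample was not tested. The annotated exons of EZH2 together span 10774 bases, against 2654 in its canonical transcript, and by that length EZH2 (4.77) stood between PHF19 (4.90) and EZH1 (3.88) in siCtrl.

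The combined knockdown was then set against each single knockdown. Against siMYCN, 7 of 9 members were called lower, beside 58.9% of all genes called and 50.0% called lower. The differences were −1.39 for PHF19, −0.79 for EZH2, −0.73 for SUZ12, −0.72 for EED, −0.46 for RNF2, −0.39 for CBX2 and −0.29 for BMI1 (limma adjusted p = 6.2e-11, 2.0e-06, 3.1e-05, 1.0e-05, 0.00095, 0.011 and 0.033). On the rescaled values PHF19, EZH2, SUZ12 and EED were called lower in this comparison, while EZH1 (0.48) and JARID2 (0.29) were called higher, beside 26.6% of all genes called lower and 30.0% called higher. The BMI1 call was lost without any 1 of the siMYCN samples or without replicate 2 or 3 of the combined knockdown (−0.32 to −0.17, limma adjusted p = 0.050 to 0.11), and its rescaled difference was 0.05.

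Against siHAND2, the combined knockdown had 4 of 9 members called lower, beside 40.3% of all genes called and 31.5% called lower. These were SUZ12 (−0.62, limma adjusted p = 4.2e-04), EZH2 (−0.59, limma adjusted p = 1.9e-04), EED (−0.47, limma adjusted p = 0.0023) and PHF19 (−0.39, limma adjusted p = 0.0055, or 0.055 in a fit of these 2 groups alone). Each was lower in all 3 combined samples than in any siHAND2 sample. The same 4 were called lower on the rescaled values, with EZH1 (0.46), JARID2 (0.19) and RNF2 (0.18) called higher, beside 23.6% of all genes called lower and 26.1% called higher. Without replicate 1 of the combined knockdown 6 members were called lower, BMI1 (−0.38) and CBX2 (−0.39) being added (limma adjusted p = 0.0034 and 0.0022) while 54.9% of all genes were called, and without its replicate 3 EZH1 was called higher (0.30, limma adjusted p = 0.017).

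Between the single knockdowns, PHF19 and RNF2 were higher with siMYCN than with siHAND2, 2 of 9 members, beside 35.0% of all genes called and 26.1% called higher. The difference was 1.00 for PHF19 (SE 0.11, limma adjusted p = 5.6e-08) and 0.44 for RNF2 (SE 0.11, limma adjusted p = 0.0026), and both were called on the rescaled values too (0.85 and 0.29), beside 22.4% of all genes called higher. All 3 siMYCN samples lay above all 3 siHAND2 samples for both genes. For EED and EZH2 the differences of 0.26 and 0.20 were not called (limma adjusted p = 0.086 and 0.17).

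Whether the changes of the single knockdowns add up on the log2 scale was tested by the interaction term, in which both single differences are subtracted from the combined one. limma called 0 of 9 members, beside 4.01% of all genes, and 2 members had an unadjusted p under 0.05, both negative. The coefficient was −0.49 for PHF19 (SE 0.15, limma adjusted p = 0.067), −0.42 for SUZ12 (SE 0.18, limma adjusted p = 0.18), −0.32 for EZH2 (SE 0.16, limma adjusted p = 0.24) and 0.05 for EED (SE 0.16, limma adjusted p = 0.86). The median coefficient of all genes tested was −0.18 as deposited and −0.01 on the rescaled values. On the rescaled values PHF19 was called (−0.31, limma adjusted p = 0.021), beside 4.47% of all genes called lower. Without replicate 1 of the combined knockdown PHF19 (−0.57), EZH2 (−0.45) and CBX2 (−0.41) were called (limma adjusted p = 0.0030, 0.0070 and 0.021), beside 35.0% of all genes.

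The other PRC2 genes gave a mixed picture, with 8 of 10 found and 7 tested. In the combined knockdown 5 were called lower and 1 higher, beside 50.1% of all genes called lower and 17.4% called higher, with a median of −0.49 beside −0.28 for all genes. On the rescaled values 3 were lower and 2 higher, beside 33.0% and 37.7% of all genes. RBBP7, a histone-binding subunit, fell by 0.40, 0.90 and 1.46 with siMYCN, siHAND2 and both (limma adjusted p = 0.018, 3.3e-06 and 2.3e-10), and its paralog RBBP4 fell by 0.63 in the combined knockdown (limma adjusted p = 5.4e-05). EPOP, an elongin-binding accessory subunit, fell by 0.85, 0.37 and 1.33 (limma adjusted p = 5.0e-06, 0.015 and 3.8e-10). All of these falls were called on the rescaled values too. With siMYCN 2 of the 7 were called higher and 2 lower, beside 17.4% and 16.3% of all genes, and with siHAND2 1 higher and 2 lower, beside 12.3% and 30.4%.

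Of the 24 other PRC1 genes, all tested, 11 were called lower and 2 higher in the combined knockdown (median −0.24), and 6 lower and 8 higher on the rescaled values (median 0.11). With siMYCN 4 were lower and 2 higher, and with siHAND2 likewise. All genes tested were called lower in 50.1% and higher in 17.4% in the combined knockdown, 33.0% and 37.7% rescaled, 16.3% and 17.4% with siMYCN, and 30.4% and 12.3% with siHAND2. The largest falls were in PCGF5 (0.54, 0.90 and 1.37), SCML2 (0.54, 0.68 and 1.32) and PCGF6 (0.42, 0.58 and 1.05), in the order siMYCN, siHAND2 and combined. PCGF5 and PCGF6 belong to variant forms of PRC1.

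Among 6 enzymes that oppose Polycomb by removing its marks, and their partners, KDM6B, a demethylase of the PRC2 mark, rose by 1.04 with siHAND2 (SE 0.21, limma adjusted p = 3.2e-04) and by 0.90 in the combined knockdown (SE 0.21, limma adjusted p = 6.2e-04). Its siHAND2 samples were at 32.6, 18.2 and 14.1 CPM, all above the siCtrl samples at 11.7, 9.75 and 7.16, and the siMYCN difference was 0.12. ASXL3, a partner of the ubiquitin-removing enzyme BAP1, rose by 0.43 with siMYCN and 0.40 in the combined knockdown (limma adjusted p = 0.013 and 0.010). ASXL2 fell by 0.38 in the combined knockdown as deposited (limma adjusted p = 0.015), with −0.03 on the rescaled values. The list had 2 called higher and 3 lower in the combined knockdown as deposited, beside 17.4% and 50.1% of all genes, and 2 higher and 0 lower on the rescaled values, beside 37.7% and 33.0%.

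A list of 8 genes reported to be silenced by EZH2 or Polycomb in neuroblastoma or other cells had 5 tested members. CLU, which encodes clusterin, rose by 1.72, 1.04 and 2.00, and CADM1, an adhesion molecule, by 1.23, 0.37 and 0.85 in the order siMYCN, siHAND2 and combined (all called on both scales). NGFR, a neurotrophin receptor, differed by 0.12 with siMYCN and fell by 1.90 with siHAND2 and 1.73 in the combined knockdown (limma adjusted p = 2.7e-10 and 2.6e-10). In the combined knockdown 4 of the 5 were called higher and 1 lower, beside 17.4% and 50.1% of all genes. On the rescaled values these counts were the same, beside 37.7% and 33.0% of all genes. With siMYCN 3 were called higher and 0 lower as deposited, beside 17.4% and 16.3%. With siHAND2 3 were called higher and 1 lower, beside 12.3% and 30.4%. RUNX3, CDKN2A and CDKN2B were below the filter. CDKN2A was at 1.54 CPM in siCtrl and lower at 0.760, 0.527 and 0.283 with siMYCN, siHAND2 and both. All its knockdown samples lay below all its siCtrl samples. RUNX3 and CDKN2B had means of at most 0.142 CPM in any group.

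Of 12 proliferation genes, 3 were called lower with siMYCN, all 12 with siHAND2 and all 12 in the combined knockdown, beside 16.3%, 30.4% and 50.1% of all genes called lower, with medians of −0.24, −0.86 and −1.69. MCM2 and MCM7, parts of the replicative helicase, fell by 2.00 and 1.79 in the combined knockdown, and AURKB, a mitotic kinase, by 1.96. On the rescaled values the medians were −0.23, −0.71 and −1.34, and the 9 members had medians of 0.03, −0.14 and −0.14. The part of this list in the changes of EZH2, EED, SUZ12 and PHF19 was not tested. The 3 genes whose log2 values followed EZH2 most closely over the 12 samples were CDC25A (Pearson r = 0.994), a phosphatase of the cell cycle, RPA2 (0.993), a DNA replication protein, and PGM2 (0.992), a sugar phosphate enzyme. For EZH1 they were CLK1 (0.867), ZNF821 (0.864) and ZMYM5 (0.863). These correlations share the libraries and the group differences and are given as a description.

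**Figure D4:**
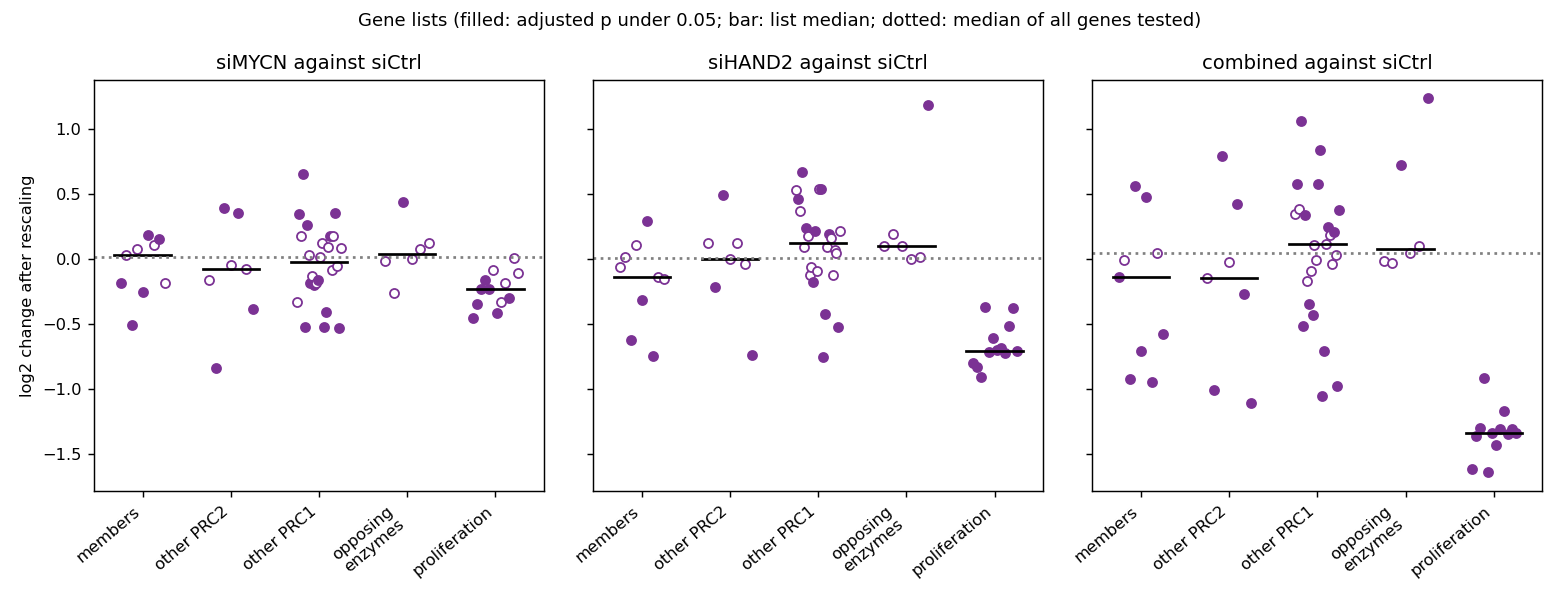
Log2 change on the rescaled values (vertical axis) of each tested gene of 5 lists in each knockdown against siCtrl, filled where called, with the median of each list (bar) and of all genes tested (dotted line). All 12 proliferation genes are called lower with siHAND2 and in the combined knockdown and 7 of 12 with siMYCN (medians −0.71, −1.34 and −0.23), while the members and the other PRC1 genes spread to both sides of the line.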

How the data were processed

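Total RNA from the 12 IMR32 samples was made into Illumina libraries, per the labels' protocols, and STAR 2.5.1, Partek and the hg19 build are named in the submitters' processing notes. The authors deposited CPM with a constant of 0.0001 added, which was subtracted. Counting tool, strand use and filters are not given in the sources used here. Depth was estimated from the smallest CPM steps, and only 79.9 to 81.4% of values of 20 to 200 reads came out whole (within 0.05 reads), so no count test was run.

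Log2(CPM + 1) values of the 12680 genes whose mean CPM reached 1 were fitted with the 4 groups in limma 3.58.1 (lmFit, eBayes with trend, R 4.3.3, 8 residual degrees of freedom), with 7 contrasts, two-sided, adjusted by Benjamini-Hochberg over all genes tested and called under 0.05. A simulation of siHAND2 against siCtrl over 12542 genes recovered 88% of 100 genes changed 1.5-fold and all 100 changed 2-fold, with 11 false calls. It drew all groups from the siCtrl means, with the same dispersion for every gene and 200 changed genes. Unlike these data, it had no shift of scale and no uneven replicates. It thus checked that the fit runs correctly and does not measure the rate of false calls here. Rescaling divided a sample by the median, over the 10192 genes whose mean CPM reached 5, of its ratio to their geometric mean. Groups follow the sample titles, which also number the replicates. Deviations of same-numbered samples correlated above 0.1 in all 3 pairs for siMYCN with siCtrl (0.44, 0.15 and 0.31) and with siHAND2 (0.33, 0.14 and 0.32). This was not so for the other group pairs, such as siCtrl with siHAND2 (0.32, −0.07 and 0.42). A pairing by number would hold for all groups alike, so these correlations do not settle whether samples were paired. The library numbers in the sample descriptions run in sets by replicate number, each set with all 4 groups. What these numbers stand for is not stated. The main fit used no pairing, and the replicate block is given as an alternative. Agreement between samples of a group was checked by chi-square on estimated reads (3.23 to 35.5 per gene), and none was counted as a duplicate. The members and lists were chosen with earlier results of these data known. All members are named, with RING1, PCGF2, both targeted genes, the 3 genes of each list with the largest called change against siCtrl, and the 3 genes most correlated with EZH2 and with EZH1. Gene lengths are from GENCODE 44 lifted to GRCh37, and promoter sequences from RefSeq.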

Additional observations from a re-analysis of the deposited data

How the results depend on the processing

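The counts of called members moved most with the scale and with the samples in the fit. The share of all genes called moved with them and is given in brackets. For siMYCN the count of 1 (33.7%) became 2 with the replicate block (38.8%), 5 after median-ratio rescaling (47.9%), after rescaling to the listed genes (48.5%) or with median-ratio rescaling and the replicate block together (51.1%), and 6 when only the groups compared were fitted (54.9%). For the combined knockdown against siHAND2 the count of 4 (40.3%) became 7 under each of these 3 rescalings (49.5% to 52.8%), and for siMYCN against siHAND2 the count of 2 (35.0%) became 5 when only those groups were fitted (53.1%). The interaction count of 0 (4.01%) became 1 with the replicate block (PHF19, limma adjusted p = 0.028, 10.1%), 1 after either rescaling (6.14% and 6.15%), and 2 with median-ratio rescaling and the block (9.95%). It ranged from 0 to 3 when single samples were left out, with 2.07% to 35.0% of all genes called. With an absolute log2 change of at least 1 also required, the counts as deposited were 0 for siMYCN (2.29%), 0 for siHAND2 (4.0%), 3 for the combined knockdown (16.6%), 1 against siMYCN (7.62%), 0 against siHAND2 (1.68%), 0 between the single knockdowns (3.21%), all with limma. After median-ratio rescaling the members' changes in the combined knockdown ran from −0.95 to 0.56, so the 3 of that group no longer reach this cutoff.

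RNF2 in the combined knockdown and BMI1 against siMYCN, both called lower as deposited, turned sign after median-ratio rescaling. JARID2 against siMYCN and against siHAND2, and RNF2 against siHAND2, turned sign and were then called higher. All differences whose sign turned are listed next. After median-ratio rescaling, with or without the replicate block, these were EZH1 (0.11) and CBX2 (0.017) with siHAND2, RNF2 in the combined knockdown (0.043), JARID2 (0.29) and BMI1 (0.047) against siMYCN, JARID2 (0.19) and RNF2 (0.18) against siHAND2, EZH1 (−0.025), SUZ12 (−0.033), JARID2 (−0.11) and BMI1 (−0.13) between the single knockdowns, and JARID2 (0.0043), BMI1 (0.11) and RNF2 (0.022) in the interaction. After rescaling to the listed genes they were EZH1 (0.080) with siHAND2, RNF2 (0.034) in the combined knockdown, JARID2 against siMYCN (0.23) and siHAND2 (0.21), RNF2 against siHAND2 (0.20), JARID2 (−0.029) and BMI1 (−0.048) between the single knockdowns, and BMI1 (0.073) in the interaction.

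With each sample left out in turn, the count called in either direction ranged from 3 to 5 for siHAND2 (33.9% to 36.8% of all genes). For the combined knockdown it ranged from 6 to 9 (61.8% to 73.7%). The 9, without its replicate 3 (68%), included EZH1 and JARID2, which were called higher. The count was 6 to 7 against siMYCN (50.6% to 70.7%) and 4 to 6 against siHAND2 (30.8% to 54.9%). It stayed at 1 for siMYCN (25.3% to 27.1%) and 2 between the single knockdowns (25.7% to 29.6%). Differences near 0 crossed it: EZH1 with siHAND2 (−0.12 to 0.011), JARID2 against siMYCN (−0.14 to 0.070) and siHAND2 (−0.10 to 0.11), RNF2 against siHAND2 (−0.098 to 0.049), BMI1 between the single knockdowns (−0.018 to 0.073), and EED (−0.078 to 0.15) and BMI1 (−0.18 to 0.050) in the interaction.

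Same-numbered samples correlated above 0.1 in every pair only for siMYCN with siCtrl and with siHAND2. In those comparisons the replicate block changed no call other than that of EZH2 with siMYCN. In the others it added SUZ12 with siHAND2 (limma adjusted p = 0.017) and EZH1 and BMI1 in the combined knockdown against siHAND2 (limma adjusted p = 0.043 and 0.039). Of the 12 samples 8 correlated best with their own number. EED with siMYCN, EZH2, EED and PHF19 with siHAND2, and EZH2, EED, PHF19, SUZ12 and BMI1 in the combined knockdown (BMI1 at −0.593 to −0.138, highest limma adjusted p 0.0467) were called lower in all 16 alternative settings at the adjusted p threshold of 0.05. These settings include the main fit itself, whose calls are the same by construction. The depth of 31.6 M reads or more puts only CBX7 near the detection floor. The cause of the lost share of listed reads was not tested.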
